A study of Mus musculus with 8 samples.

Results

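Calcium channels, calcium stores and calcium pumps were represented by 60 genes among the 54532 entries of the count table. The members were every entry whose symbol names a pore or auxiliary subunit of the voltage-gated calcium channels, a ryanodine or inositol trisphosphate (IP3) receptor, an ORAI channel or STIM sensor, a TRPC or TRPV channel, a SERCA or PMCA pump, *Piezo1*, *Piezo2* or *Mcu*. The rule used their symbols and no measured value. At least 1 read was counted for 51 of them, and 32 had enough counts to be tested. The other 19 counted members were compared separately, and 9 had no count in any library.

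Cells keep free calcium in the cytosol low and use brief rises of it as a signal. Pumps of the SERCA family load the endoplasmic reticulum, IP3 receptors and ryanodine receptors let the store out again, and pumps of the PMCA family expel calcium across the plasma membrane. When the store empties, STIM proteins sense the loss and open ORAI channels, while voltage-gated, TRP and Piezo channels admit calcium in response to depolarization, ligands, heat or stretch. In fibroblasts, calcium signals are known to accompany contraction, migration and matrix production.

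The RNAseq data comprised 4 WT and 4 HOMO libraries from untreated primary lung fibroblasts (pFBs) of female mice on the C57/black background, and the question was which genes differ when the human protein IGFBP5 is made. HOMO mice are homozygous for a human *IGFBP5* transgene knocked in by CRISPR/Cas9 under the Ef1a1 promoter, which is active in most cell types, and WT mice lack it. The pFBs of both genotypes were grown and passaged in medium with serum, so the cells stand for cultured fibroblasts rather than for the lung. The age and number of the mice are not given in the sources used here. The study's text speaks of the HOMO samples as mice, while the sample labels do not say which libraries came from separate mice or cultures, so p-values measure the spread between these libraries, which may be technical.

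The total count was 17236521 to 29028769 per WT library and 19009027 to 31987790 per HOMO library. The human transgene was not analysed here, and mouse *Igfbp5* was counted 7130 times in WT3, 112 to 225 times in the other WT libraries and 24 to 57 times in HOMO. WT2 was nearly identical to WT1, HOMO2 to HOMO1 and HOMO4 to HOMO3. The biological coefficient of variation was 4.71 to 7.65% in these pairs and 30.0 to 56.4% in other pairs within a genotype. All 9 fibroblast markers were tested, and their summed level ranged from 12937 to 16618 CPM in WT and from 14002 to 24381 CPM in HOMO, led by *Col1a1*. Of these, *Pdgfrb* and *Vim* were downregulated. In bulk RNA, fewer cells of a type and less RNA per cell cannot be told apart.

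Promoter sequences are shown for the store-operated channels *Orai1* and *Orai3*, whose HOMO levels all lay below the WT levels, and for the store release channel *Itpr3*, whose HOMO levels all lay above them, because they form the entry and release ends of the same signaling route. Each runs from 250 bases before the annotated start to 50 bases after it (RefSeq, GRCm38.p6, plus strand, 5′ to 3′). Capitals mark the GC box GGGCGG, found on either strand, a motif bound by factors of the Sp family. *Orai1* and *Itpr3* are the called members with a single entry in the promoter table, and *Orai3* is added as the nearest relative of *Orai1*.
Orai1 (chr5:123014824-123015123): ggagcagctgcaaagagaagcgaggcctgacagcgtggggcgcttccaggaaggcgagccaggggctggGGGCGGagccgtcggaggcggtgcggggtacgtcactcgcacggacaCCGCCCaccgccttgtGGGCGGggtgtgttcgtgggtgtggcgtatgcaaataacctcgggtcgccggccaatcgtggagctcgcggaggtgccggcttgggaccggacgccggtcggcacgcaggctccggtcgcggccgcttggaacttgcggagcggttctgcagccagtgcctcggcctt
Orai3 (chr7:127769565-127769864): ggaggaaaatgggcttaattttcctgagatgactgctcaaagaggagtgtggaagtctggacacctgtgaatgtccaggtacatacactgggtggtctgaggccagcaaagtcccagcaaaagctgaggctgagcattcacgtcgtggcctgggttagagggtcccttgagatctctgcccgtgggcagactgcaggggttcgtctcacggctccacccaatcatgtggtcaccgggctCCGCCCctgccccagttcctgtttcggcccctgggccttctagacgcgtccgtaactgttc
Itpr3 (chr17:27057054-27057353): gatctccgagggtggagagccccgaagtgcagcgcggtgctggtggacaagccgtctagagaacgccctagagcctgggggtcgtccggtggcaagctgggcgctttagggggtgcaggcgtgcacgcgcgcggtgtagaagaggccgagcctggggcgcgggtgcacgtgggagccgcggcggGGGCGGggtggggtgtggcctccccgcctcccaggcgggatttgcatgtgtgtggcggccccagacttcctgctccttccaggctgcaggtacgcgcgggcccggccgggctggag
The *Orai1* window held 3 GC boxes and 36 CpG dinucleotides, with a GC content of 70.3%. The *Itpr3* window held 1 GC box and 30 CpG dinucleotides (GC content 72.3%), and the *Orai3* window 1 GC box and 11 CpG dinucleotides (57.7%). A GC box stood in 35.7% of all 32851 promoters of that length, and the median promoter held 7 CpG dinucleotides. The CCAAT box, spelled CCAAT and searched on both strands, was found once each in the *Orai1* and *Orai3* windows and in 37.4% of all promoters. The core bound by NFAT, the transcription factor that calcium activates through calcineurin, was searched as GGAAA on both strands and found 2 times in the *Orai3* window, 0 times in the others and in 61.3% of all promoters. The 3 windows did not share one composition, and the matches are descriptions of letters only.

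Levels are given as CPM, counts relative to a library size that edgeR scaled by its TMM method, and for comparisons between genes as CPM per kb of exon. Per kb, the highest member was *Atp2a2*, the SERCA pump found in most tissues, with means of 109 in WT and 87.7 CPM per kb in HOMO. *Piezo1*, a stretch-activated channel, followed with 55.6 and 76.3 CPM per kb, and *Cacnb3*, an auxiliary subunit of the voltage-gated channels, with 38.5 and 38.6 CPM per kb. The 5 genes of store-operated entry lay close together, between 8.08 and 9.75 CPM per kb in WT and between 5.25 and 7.0 CPM per kb in HOMO. *Itpr3* was the highest release channel at 9.29 CPM per kb in WT and 20.4 CPM per kb in HOMO, while the 3 ryanodine receptors were all below 0.1 CPM per kb in both genotypes.

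**Figure D1:**
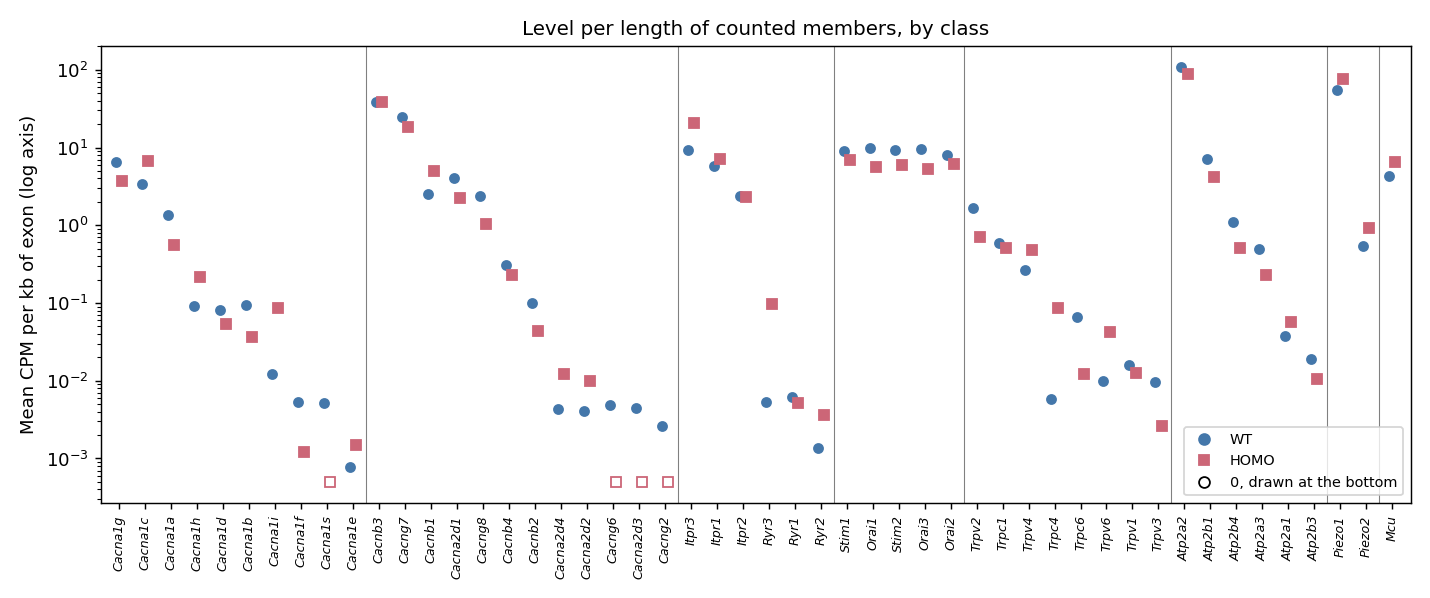
Mean level of the counted members reported here in CPM per kb of exon (log axis) in the 4 WT (circles) and 4 HOMO (squares) libraries, by class in the order pores, auxiliary subunits, release channels, store-operated entry, TRP channels, pumps, Piezo channels and *Mcu*, with open symbols at the bottom for a mean of 0. *Atp2a2*, at 109 CPM per kb in WT, is the highest, and the store-operated entry genes lie close together.

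Of the 32 tested members, 7 (21.9%) were differentially expressed (DEGs), against 12.1% of all 14150 tested genes. A DEG had a Benjamini-Hochberg adjusted p under 0.05 in edgeR's two-sided quasi-likelihood F test and a log2 fold change beyond 0.6 in size. SE denotes the standard error of a log2 fold change. The 4 upregulated members were *Ryr3*, *Itpr3*, *Cacna1c* and *Cacnb1*, where 5.94% of all tested genes were upregulated. The 3 downregulated members were *Orai1*, *Atp2b1* and *Cacna1a*, where 6.18% of all tested genes were downregulated. The log2 fold changes of the 32 members had a median of −0.39, against −0.04 over all tested genes. Among the members 11 were above and 21 below 0, and among all tested genes 6693 were above and 7457 below 0. The genotypes did not overlap in 10 members (31.2%), against 27.3% of all tested genes.
These calls depended on how the near-identical libraries were treated. With the counts of each near-identical pair summed, which leaves 3 WT and 2 HOMO units, edgeR called 0 members and 0 genes in all. An unadjusted p under 0.05 was then reached by 10 of the 35 members tested in this setting and by 2057 of all 16130 genes tested in it. *Ryr3* was the one DEG left among the 32 members tested without HOMO1 and again among the 33 tested without HOMO2. Over all genes, 507 of 14405 tested were called without HOMO1 and 512 of 14382 without HOMO2. Without HOMO4, 4 of 34 tested members were called, against 980 of all 14591 tested genes.

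**Figure D2:**
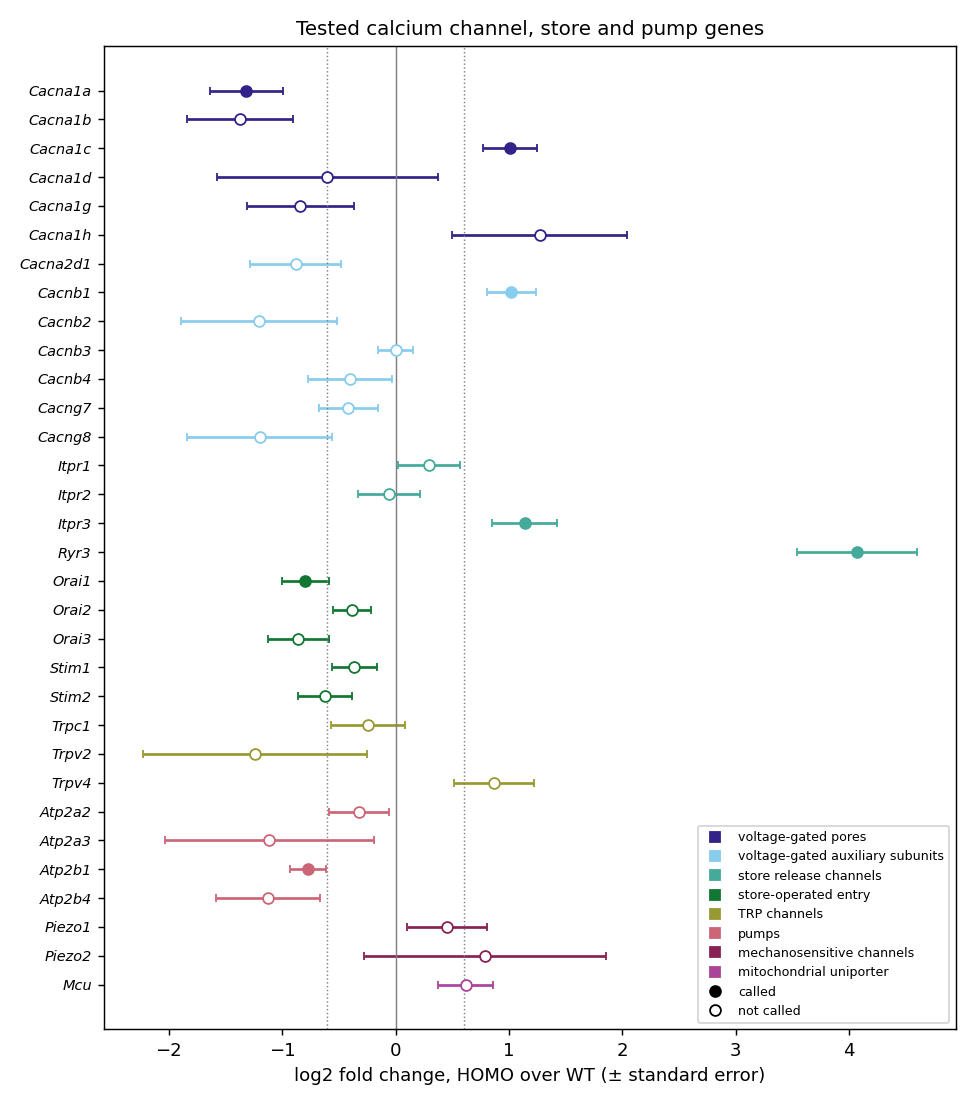
Log2 fold change of HOMO over WT for the 32 tested members, by class, with bars for the standard error (n = 4 and 4 libraries), filled points for DEGs and dotted lines at −0.6 and 0.6. *Ryr3* lies farthest from 0 at 4.07, and all 5 store-operated entry genes and all 4 tested pumps lie below 0.

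Of the 4 tested channels that release calcium from the store, 2 were upregulated. *Ryr3* (chromosome 2 from 112631355 to 113217096), the ryanodine receptor isoform found at low levels in many tissues, had read counts of 2, 1, 1 and 5 over WT1 to WT4 and of 37, 38, 36 and 55 over HOMO1 to HOMO4. Every HOMO library was above every WT library, at 1.15 to 2.76 CPM against 0.0429 to 0.194 CPM. Its log2 fold change was 4.07 (SE 0.53, edgeR adjusted p = 0.00416). Because WT held 9 reads in all, the ratio of summed counts, scaled for library size, was 16.3-fold with a 95% interval from 8.41 to 36.4 that covers counting error only. *Ryr3* shares 4.83% of its exon bases with *Aven* on the opposite strand, and whether counting used the strand is not given in the sources used here. *Aven* did not pass the test (log2 fold change −0.52, edgeR adjusted p = 0.271), and its counts of 154 to 294 in HOMO overlapped its 266 to 389 in WT. Even in HOMO, *Ryr3* remained at a mean of 0.0972 CPM per kb, and *Ryr1*, the skeletal muscle isoform, and *Ryr2*, the cardiac isoform, had between 0 and 7 counts in each library.

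*Itpr3* (chromosome 17 from 27057304 to 27122223), one of 3 IP3-gated release channels of the endoplasmic reticulum, had 103, 98.1, 37.6 and 96.4 CPM in WT1 to WT4 and 196, 186, 181 and 174 CPM in HOMO1 to HOMO4. All HOMO libraries were above all WT libraries, and WT3 stood below the other WT libraries. Levels averaged 83.8 ± 30.9 CPM in WT and 184 ± 9.48 CPM in HOMO (SD, n = 4 each), and the log2 fold change was 1.14 (SE 0.29, edgeR adjusted p = 0.0357). *Itpr1*, the isoform dominant in neurons, averaged 106 ± 37.3 CPM in WT and 130 ± 10.8 CPM in HOMO (SD, n = 4 each) and did not pass the test (log2 fold change 0.30, edgeR adjusted p = 0.483). *Itpr2*, the isoform most sensitive to IP3, averaged 35.7 ± 12.5 CPM and 34.3 ± 4.10 CPM and did not pass either (log2 fold change −0.06, edgeR adjusted p = 0.909). All 3 were lowest in WT3 among the 8 libraries.
The IP3 receptors had shares that did not overlap between the genotypes. *Itpr3* made up 50.5 to 55.5% of their summed CPM per kb in WT and 67.1 to 69.4% in HOMO. The share of *Itpr1* was 31.9 to 34.5% in WT and 22.8 to 24.5% in HOMO, and that of *Itpr2* was 12.6 to 14.9% and 6.97 to 8.37%. WT3, where all 3 genes were low, had shares within 1 percentage point of WT4, and the ratio of *Itpr3* to *Itpr1* was 1.46 to 1.74 in WT and 2.74 to 3.04 in HOMO. These shares are descriptions and were given no test.

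All 5 genes of store-operated entry had a negative log2 fold change, from −0.86 to −0.36, and 1 of them passed the test. *Orai1* (chromosome 5 from 123015074 to 123030456), the pore of the classical store-operated current, had 17.4, 17.8, 29.7 and 24.6 CPM in WT1 to WT4 and 12.1, 12.4, 13.1 and 14.0 CPM in HOMO1 to HOMO4. The genotypes did not overlap, and WT3 and WT4 were the highest. *Orai1* was downregulated by a log2 fold change of −0.79 (SE 0.21, edgeR adjusted p = 0.0382). Among the settings in which its call was lost were the absence of a filter on low counts and the comparison without WT3 and WT4. In limma-voom with sample weights its adjusted p was 0.00424, and its log2 fold change of −0.45 missed the fold threshold.
*Orai3* (chromosome 7 from 127769815 to 127775150), a channel that can join *Orai1* in mixed pores, had 12.6, 15.3, 29.3 and 24.3 CPM in WT1 to WT4 and 10.8, 11.3, 11.8 and 11.03 CPM in HOMO1 to HOMO4. Its WT libraries were spread over a wider range than its HOMO libraries, without overlap between genotypes. It did not pass the test (log2 fold change −0.86, SE 0.27, edgeR adjusted p = 0.0676). DESeq2 over the 8 libraries called *Orai3* as lower in HOMO, and without WT1 edgeR called it too (log2 fold change −1.03). Relative to all genes, those on chromosome 7 had a median level in WT3 that was 0.35 on the log2 scale above the mean of the other WT libraries. The 1045 tested genes of chromosome 7 had a median log2 fold change of −0.29. Both shifts touch *Orai3*, *Stim1*, *Cacng7* and *Cacng8*, and the part of the shifts in the values of these genes was not tested.
*Orai2* averaged 49.1 ± 9.26 CPM in WT and 37.7 ± 4.17 CPM in HOMO (SD, n = 4 each), and its genotypes overlapped because WT3, at 36.4 CPM, lay within the HOMO range. The ORAI genes summed to 23.0 to 32.6 CPM per kb in WT and 16.7 to 17.4 CPM per kb in HOMO, without overlap, while each gene's share of that sum did overlap between genotypes. Of the sensors of the store, *Stim1* ranged from 68.2 to 130 CPM in WT and from 66.6 to 79.4 CPM in HOMO (log2 fold change −0.36, edgeR adjusted p = 0.242). *Stim2*, the sensor of smaller losses, ranged from 27.8 to 61.2 CPM and from 27.2 to 36.5 CPM (log2 fold change −0.62, edgeR adjusted p = 0.109). Without WT3, *Stim2* was called. Neither sensor separated the genotypes in all 8 libraries.

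**Figure D3:**
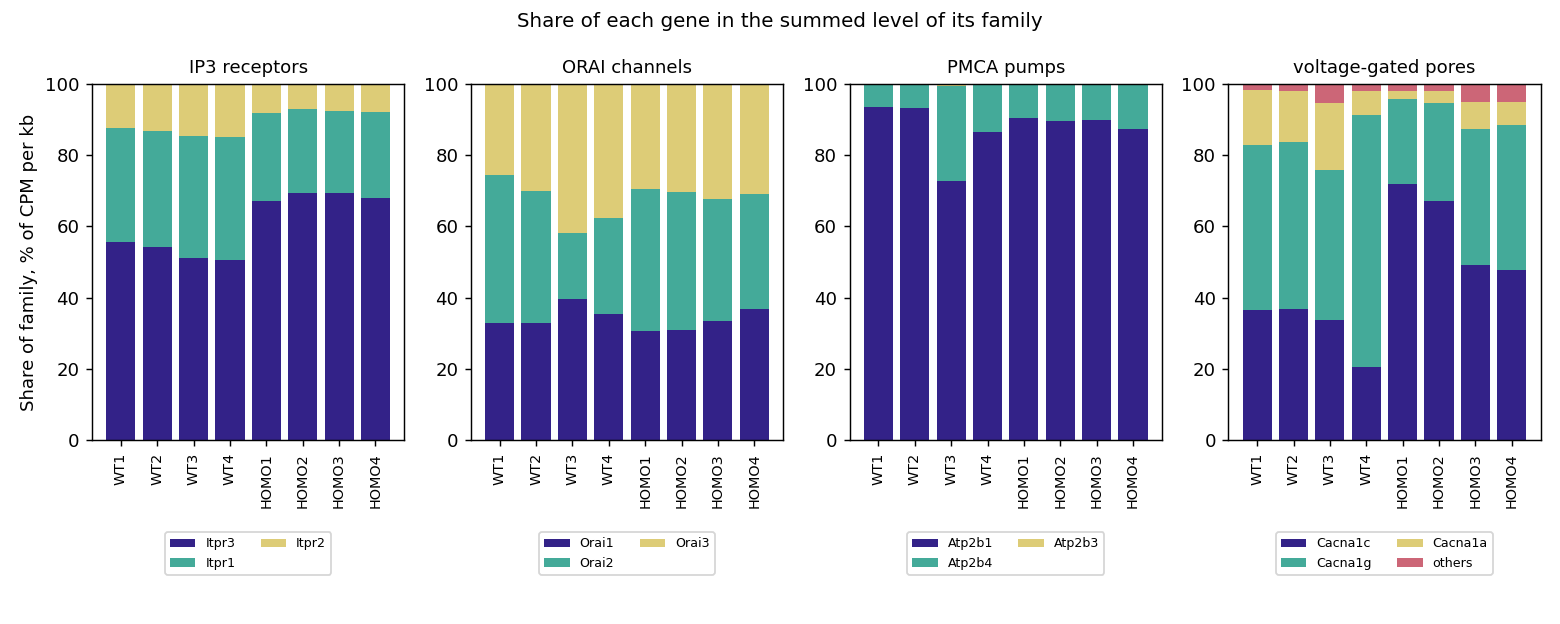
Share of each gene in the summed CPM per kb of its family in each of the 8 libraries, for IP3 receptors, ORAI channels, PMCA pumps and the pores of voltage-gated channels. The *Itpr3* share is 50.5 to 55.5% in WT and 67.1 to 69.4% in HOMO, and the ORAI shares overlap between genotypes.

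All 4 tested pumps had a negative log2 fold change, and 1 passed the test. *Atp2b1* (chromosome 10 from 98914406 to 99026143), the PMCA pump found in nearly all tissues, had 117, 108, 85.0 and 129 CPM in WT1 to WT4 and 60.4, 55.8, 69.2 and 71.7 CPM in HOMO1 to HOMO4. WT3 was the lowest WT library and still lay above every HOMO library. The gene was downregulated by a log2 fold change of −0.77 (SE 0.16, edgeR adjusted p = 0.0190), from 110 ± 18.7 to 64.3 ± 7.45 CPM (SD, n = 4 each). *Atp2b4*, the other PMCA pump above trace levels, ranged from 6.18 to 25.0 CPM in WT and from 5.17 to 8.17 CPM in HOMO, with an overlap, and did not pass (log2 fold change −1.13, SE 0.46, edgeR adjusted p = 0.131). The PMCA genes summed to 7.61 to 9.82 CPM per kb in WT and 4.10 to 5.40 CPM per kb in HOMO, and *Atp2b1* made up 72.8 to 93.3% of that sum in WT and 87.3 to 90.4% in HOMO.
The pump that loads the store gave no difference beyond the spread between libraries. *Atp2a2* had 509, 480, 1076 and 598 CPM in WT1 to WT4 and 498, 485, 579 and 570 CPM in HOMO1 to HOMO4, with a log2 fold change of −0.32 (SE 0.26, edgeR adjusted p = 0.432). WT3 held the highest level, and without WT3 the log2 fold change was 0.00822. *Atp2a2* made up 99.2 to 99.9% of the summed SERCA level over the 8 libraries. *Atp2a3*, a SERCA pump of blood and endothelial cells, had 1.18, 1.16, 3.90 and 4.14 CPM in WT1 to WT4 and 0.134, 0.182, 2.48 and 2.06 CPM in HOMO1 to HOMO4. It split within both genotypes and did not pass (edgeR adjusted p = 0.436).

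Among the pores of the voltage-gated channels, 2 of 6 tested genes passed the test, in opposite directions. *Cacna1c* (chromosome 6 from 118587240 to 119196418), the L-type pore of cardiac and smooth muscle, had 69.8, 75.8, 49.8 and 90.9 CPM in WT1 to WT4 and 185, 168, 109 and 114 CPM in HOMO1 to HOMO4. The genotypes did not overlap, and HOMO1 and HOMO2 lay above HOMO3 and HOMO4. It was upregulated by a log2 fold change of 1.01 (SE 0.24, edgeR adjusted p = 0.0302).
*Cacna1a* (chromosome 8 from 84388440 to 84640246), the P/Q-type pore of nerve terminals, had 15.6, 15.8, 14.9 and 16.3 CPM in WT1 to WT4 and 3.21, 4.69, 9.07 and 8.22 CPM in HOMO1 to HOMO4. The WT libraries lay close together and the HOMO pairs apart, again with HOMO1 and HOMO2 farther from WT. It was downregulated by a log2 fold change of −1.32 (SE 0.32, edgeR adjusted p = 0.0325), while the 790 tested genes of chromosome 8 had a median log2 fold change of 0.37. Per kb, *Cacna1c* stood 1.80 to 3.01 times above *Cacna1a* in WT and 6.48 to 31.0 times in HOMO.
*Cacna1g*, a T-type pore that opens at small depolarizations, had the highest pore level per kb in WT, 6.58 CPM per kb against 3.68 CPM per kb in HOMO. It had 42.5, 46.2, 29.6 and 148 CPM in WT1 to WT4 and 29.2, 32.8, 40.8 and 46.6 CPM in HOMO1 to HOMO4, so that WT4 alone lay above the rest, and it did not pass the test (log2 fold change −0.84, SE 0.48, edgeR adjusted p = 0.257). *Cacna1c* made up 20.7 to 36.8% of the summed pore level in WT and 47.7 to 71.9% in HOMO, and *Cacna1g* 42.0 to 70.5% and 23.7 to 40.8%, while the sums themselves overlapped, at 6.95 to 20.8 CPM per kb in WT and 10.5 to 12.1 CPM per kb in HOMO.
The other tested pores were low. *Cacna1b* (N-type) had 0.465 to 1.24 CPM in WT and 0.203 to 0.602 CPM in HOMO, *Cacna1d* (L-type) 0.169 to 3.37 and 0.312 to 1.17 CPM, and *Cacna1h* (T-type) 0.281 to 2.30 and 0.758 to 3.76 CPM. Their edgeR adjusted p values were 0.0845, 0.705 and 0.286. *Cacna1b* was called without WT4 (log2 fold change −1.60, edgeR adjusted p = 0.0489), and *Cacna1h* without WT3, where its log2 fold change was 2.31 in place of 1.27 (edgeR adjusted p = 0.0476). The direction of *Cacna1d* rested on WT4, and its log2 fold change of −0.60 was 1.57 without that library.

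Of the auxiliary subunits, 1 of 7 tested genes passed the test. *Cacnb1* (chromosome 11 from 98001508 to 98023034), a beta subunit that carries pores to the membrane and is best known from skeletal muscle, had 13.3, 13.9, 7.46 and 10.4 CPM in WT1 to WT4 and 22.6, 25.3, 21.2 and 22.4 CPM in HOMO1 to HOMO4. All HOMO libraries were above all WT libraries, and the gap between the genotypes was wider than the range of either HOMO or WT. It was upregulated by a log2 fold change of 1.02 (SE 0.22, edgeR adjusted p = 0.0203).
*Cacnb3*, the most abundant beta subunit, averaged 155 ± 29.5 CPM in WT and 155 ± 6.26 CPM in HOMO (SD, n = 4 each), with a log2 fold change of 0.00 (SE 0.15, edgeR adjusted p = 0.992). *Cacnb1* made up 4.56 to 7.37% of the summed beta subunits in WT and 11.1 to 11.98% in HOMO, and *Cacnb3* 91.9 to 94.3% and 87.4 to 88.4%, both without overlap. *Cacna2d1*, an alpha-2/delta subunit that raises the number of channels at the surface, had 36.2 to 64.8 CPM in WT1 to WT4 and 14.1, 15.3, 44.4 and 37.0 CPM in HOMO1 to HOMO4. HOMO1 and HOMO2 lay below every WT library and HOMO3 and HOMO4 within the WT range, and it did not pass the test (edgeR adjusted p = 0.169). *Cacng7* and *Cacng8*, named as gamma subunits in a family that includes regulators of glutamate receptors, had 39.7 to 91.1 and 1.49 to 9.79 CPM in WT and 43.8 to 46.5 and 1.16 to 3.95 CPM in HOMO. *Cacnb2* and *Cacnb4* stayed below 5 CPM in every library, and no p of these 4 passed (edgeR adjusted p between 0.228 and 0.492).

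**Figure D4:**
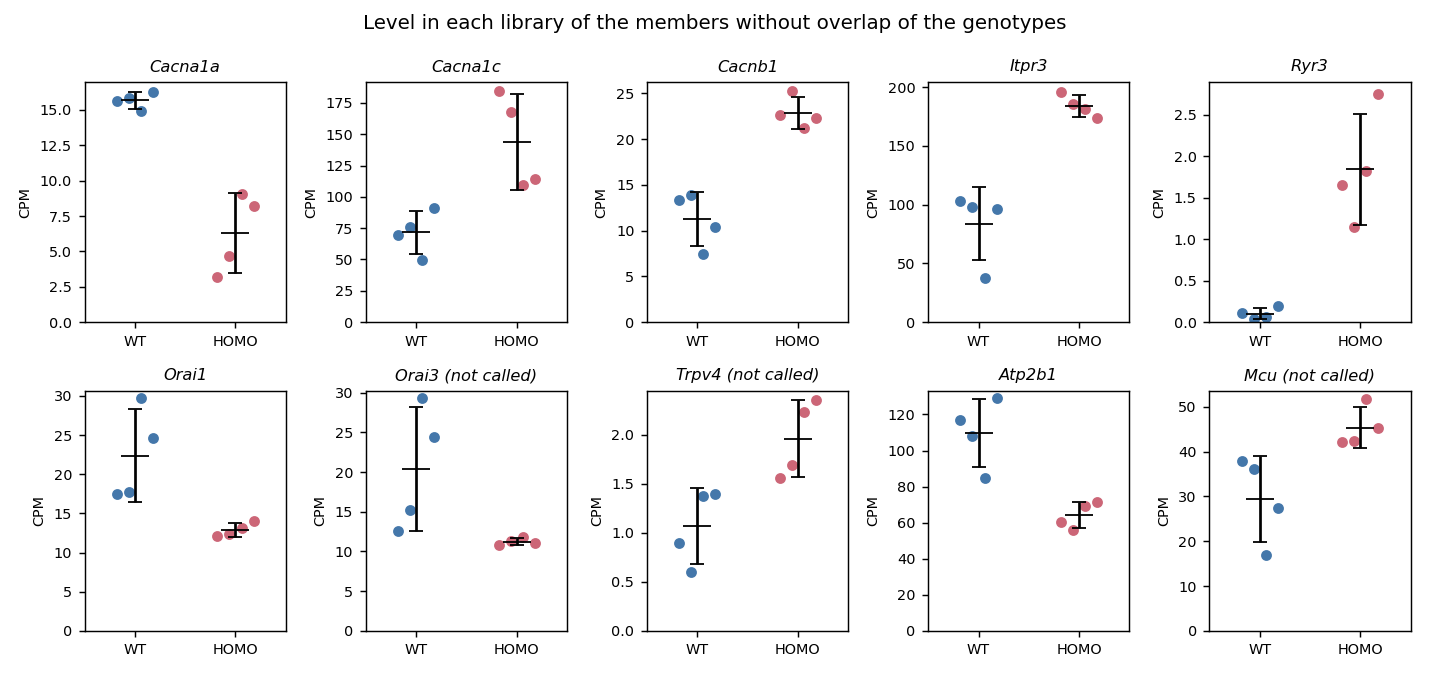
CPM in each of the 4 WT and 4 HOMO libraries (points) for the 10 tested members whose genotypes do not overlap, with the mean and SD in black and a vertical axis from 0 in each panel. *Ryr3* rises from 0.0429 to 0.194 CPM in WT to 1.15 to 2.76 CPM in HOMO, and *Orai3*, *Trpv4* and *Mcu* are not DEGs.

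None of the 3 tested TRP channels, the 2 Piezo channels or *Mcu* passed edgeR's test, and 1 TRP channel and *Mcu* had an unadjusted p under 0.05. DESeq2 called none of these 6 either, and limma-voom with sample weights called *Trpv4* and *Piezo2*. *Trpv4*, a channel opened by swelling, warmth and stretch, had 0.900, 0.601, 1.38 and 1.39 CPM in WT1 to WT4 and 1.56, 1.69, 2.23 and 2.36 CPM in HOMO1 to HOMO4. The genotypes did not overlap, though the highest WT library lay close below the lowest HOMO library, and the log2 fold change was 0.87 (SE 0.35, edgeR adjusted p = 0.130). *Trpc1*, a widely expressed TRPC channel, had 2.30 to 6.26 CPM in WT and 3.51 to 4.91 CPM in HOMO (edgeR adjusted p = 0.647). *Trpv2* split within both genotypes, with 1.86, 2.06, 13.1 and 12.9 CPM in WT1 to WT4 and 0.357, 0.756, 5.58 and 6.07 CPM in HOMO1 to HOMO4. *Trpv2* is abundant in macrophages, and the summed level of 7 macrophage markers, led by *Lyz2*, ranged from 129 to 1924 CPM in WT and from 56.7 to 186 CPM in HOMO, where its part in the *Trpv2* values was not tested.
*Piezo1* had 639, 634, 196 and 739 CPM in WT1 to WT4 and 837, 787, 709 and 699 CPM in HOMO1 to HOMO4. WT3 lay far below every other library, WT4 lay among the HOMO libraries, and the test was not passed (log2 fold change 0.46, SE 0.35, edgeR adjusted p = 0.406). The 790 tested genes of chromosome 8, where *Piezo1* lies, had a median log2 fold change of 0.37. Its part in the values of *Piezo1* was not tested. The gene shares 24.6% of its exon bases with *Ctu2* on the opposite strand, whose log2 fold change was −0.02. *Piezo2*, best known from touch-sensing neurons, had 1.91, 2.06, 0.459 and 32.3 CPM in WT1 to WT4 and 13.9, 10.6, 18.8 and 20.6 CPM in HOMO1 to HOMO4. WT4 lay above every HOMO library and the other 3 WT libraries below them, and without WT4 *Piezo2* was called as higher in HOMO.
*Mcu* (chromosome 10 from 59446984 to 59616692), the pore that takes calcium into mitochondria, had 37.8, 36.0, 16.9 and 27.4 CPM in WT1 to WT4 and 42.1, 42.3, 51.8 and 45.2 CPM in HOMO1 to HOMO4. All HOMO libraries were above all WT libraries, yet the log2 fold change of 0.62 (SE 0.24) did not pass the test (edgeR adjusted p = 0.12).

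The 19 members with counts too low for edgeR's filter were each given a two-sided exact permutation test of their CPM. With 70 ways to split 8 libraries evenly, its p cannot fall below 0.0286. These ways treat the near-identical libraries as separate. With each near-identical pair counted once, as 3 WT and 2 HOMO units, there are fewer ways and the smallest possible p is larger. The p of 0.0286, unadjusted, was reached by *Cacna1i* and *Trpc4* and by no other of the 19. *Cacna1i*, a T-type pore known from the thalamus, had read counts of 1, 9, 0 and 1 over WT1 to WT4 and of 22, 15, 26 and 13 in HOMO1 to HOMO4. Its ratio of summed counts, scaled for library size, was 6.12-fold (95% counting interval 3.24 to 12.8). *Trpc4*, a receptor-operated channel, had read counts of 0, 3, 1 and 0 over WT1 to WT4 and of 19, 33, 13 and 6 in HOMO1 to HOMO4, a ratio of 15.7-fold (interval 5.88 to 59.3). In both genes every HOMO library was above every WT library in CPM, and both stayed below 0.1 CPM per kb in HOMO. Such a lack of overlap was common, at 27.3% of all tested genes. Its share among all genes outside the test was not computed. DESeq2, which tests more genes, called both. With 1 HOMO library left out, both again had an exact permutation p of 0.0286, except *Cacna1i* without HOMO3 (0.0571). With any 1 WT library left out the p of both was 0.0571. Groups of unequal size change the p values that the test can take. These p values alone therefore do not show that the result depends on the WT libraries.
*Trpc6*, a diacylglycerol-activated channel studied in myofibroblasts, had read counts of 2, 1, 8 and 19 over WT1 to WT4 and of 0, 0, 0 and 5 in HOMO1 to HOMO4 (exact permutation p = 0.171). HOMO4 overlapped the WT range, and most WT reads came from WT4. *Trpv6*, an epithelial calcium channel, was counted 3 times over the WT libraries and 6, 10, 1 and 1 times in HOMO1 to HOMO4 (exact permutation p = 0.171).
The other 15 had at most 20 counts over the libraries of either genotype, and exact permutation p between 0.114 and 1. Among them were the pores *Cacna1e*, *Cacna1f* and *Cacna1s*, the auxiliary subunits *Cacna2d2*, *Cacna2d3*, *Cacna2d4*, *Cacng2* and *Cacng6*, the release channels *Ryr1* and *Ryr2*, the TRP channels *Trpv1* and *Trpv3*, and the pumps *Atp2a1* and *Atp2b3*. No difference was detected in them. No read was counted for *Cacng1*, *Cacng3*, *Cacng4*, *Cacng5*, *Trpc2*, *Trpc5*, *Trpc7*, *Trpv5* or *Atp2b2*. A count of 0 allows up to 3 counts, or 0.0908 to 0.172 CPM per library, and for *Trpc2*, 97.5% of exon bases lie within *Xntrpc* on the same strand, so that its 0 says little.

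Several members are best known from muscle and nerve, so markers of these cells were read beside them. Of 11 skeletal muscle markers, *Myod1*, *Myog* and *Myh4* had 3 or fewer counts in every library, and the list summed to 4.20 to 14.4 CPM in WT and 1.79 to 9.68 CPM in HOMO. *Mylpf* and *Cav3* were downregulated among them. The 6 cardiac markers summed to 4.11 to 20.3 and 5.47 to 13.1 CPM, with *Nppa* and *Myl7* at 3 or fewer counts in every library. Of 8 neuronal markers, *Snap25*, *Rbfox3* and *Stmn2* had 3 or fewer counts in every library, and the list, led by *Tubb3*, summed to 39.0 to 182 CPM in WT and 23.7 to 39.6 CPM in HOMO. Among them *Tubb3*, which makes up most of that sum, was downregulated, and *Syt1* was upregulated, from 0 to 0.3 CPM in WT to 0.998 to 1.29 CPM in HOMO. The 7 smooth muscle markers, which fibroblasts can also express, summed to 880 to 2873 CPM in WT and 262 to 1562 CPM in HOMO, led by *Acta2*. Whether these levels bear on *Cacna1c*, *Cacna1a* or *Cacnb1* was not tested.

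Genes that work beside the members were taken from a list of 135, of which 100 were tested. Of these, 6 were upregulated and 10 downregulated (16%, against 12.1% of all tested genes), and their median log2 fold change was −0.22. With the near-identical libraries summed, edgeR called 0 genes of the list. Of the 107 listed genes tested in that setting, 19 had an unadjusted p under 0.05, against 2057 of all 16130 genes tested in it.
Partners of release were called in both directions. *Plce1*, a phospholipase C that makes IP3, averaged 16.7 ± 9.26 CPM in WT and 158 ± 10.5 CPM in HOMO (SD, n = 4 each), and its log2 fold change was 3.24 (edgeR adjusted p = 0.00417), and *Plch1*, another, averaged 0.203 ± 0.138 and 1.53 ± 0.925 CPM (edgeR adjusted p = 0.0470). *Cd38*, which makes cyclic ADP-ribose, a messenger that acts on ryanodine receptors, had 0.619, 1.97, 4.76 and 2.09 CPM in WT1 to WT4 and 27.3, 26.7, 9.78 and 11.2 CPM in HOMO1 to HOMO4 (log2 fold change 2.99, edgeR adjusted p = 0.0186). Junctophilins, which tether the store to the plasma membrane, were split. *Jph2* fell from 222 to 399 CPM in WT to 15.8 to 77.4 CPM in HOMO (log2 fold change −2.76, edgeR adjusted p = 0.0211). *Jph1* and *Jph4* rose, with log2 fold changes of 0.87 and 1.52 (edgeR adjusted p = 0.0297 and 0.0462).
*Cracr2a*, a cytosolic regulator of ORAI channels, rose from 0.976 to 1.80 CPM in WT to 3.80 to 8.65 CPM in HOMO (log2 fold change 2.02, edgeR adjusted p = 0.0124), whereas *Orai1* itself was lower. The ATP-gated channel *P2rx7* and the calcium-activated channel *Trpm5* fell, with log2 fold changes of −3.39 and −3.11 (edgeR adjusted p = 0.0414 and 0.0229). *Rcan1*, an inhibitor of calcineurin, fell by 1.89 on the log2 scale (edgeR adjusted p = 0.0457), and its WT levels were uneven, at 25.8, 25.7, 136 and 73.9 CPM in WT1 to WT4 against 16.9 to 18.4 CPM in HOMO. The other 6 called genes were all lower in HOMO, with log2 fold changes from −0.85 to −0.60. They include *Smdt1*, *Slc8b1* and *Letm1*, 3 of the 11 tested genes of mitochondrial calcium transport, of which 8 had a negative log2 fold change. *Canx*, a chaperone of the endoplasmic reticulum that binds calcium, and *Camk2d*, a calmodulin-dependent kinase, were among them too.

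The calls of single members varied between settings. *Ryr3* was called in 17 of 18 alternatives and in all 8 comparisons that left out 1 library. With near-identical libraries summed, its edgeR adjusted p was 0.201. Leaving out 1 library of a near-identical pair keeps the other library of that pair in the comparison. *Atp2b1* and *Cacnb1* were called in 14 of 18 alternatives each, *Cacna1c* in 12, *Itpr3* in 11, *Cacna1a* in 10 and *Orai1* in 8. Each of the 7 kept its direction in all 18, with log2 fold changes between 0.87 and 1.25 for *Itpr3*, between −0.90 and −0.45 for *Orai1* and between −0.88 and −0.68 for *Atp2b1*. Setting aside WT3 and WT4, the WT libraries that lie apart from the near-identical WT1 and WT2, gave 13 called members of 34 tested. Over all genes, 3117 of 14912 tested were called in this alternative. This alternative was chosen after seeing the data.

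**Figure D5:**
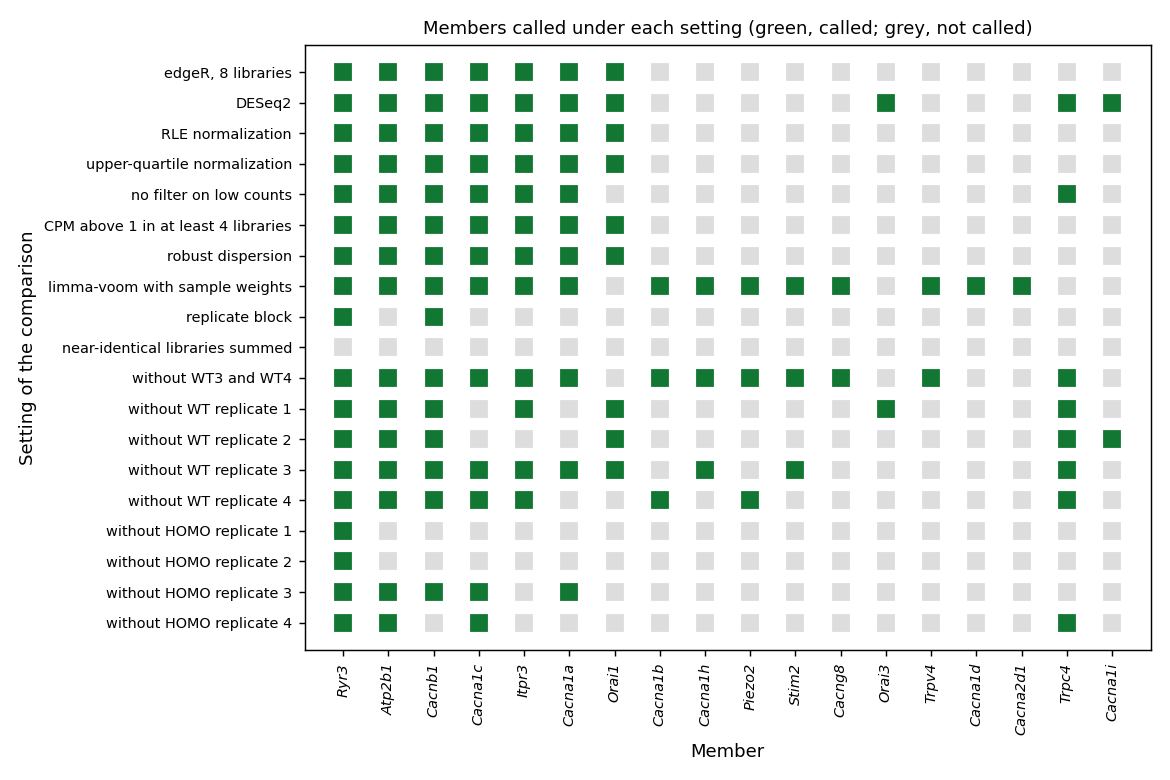
Members called (green) or not (grey) in edgeR over the 8 libraries (top row) and in each of 18 alternatives, for the 18 members called at least once. *Ryr3* is called in 17 of 18 alternatives, and no member is called when near-identical libraries are summed.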

How the data were processed

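The authors deposited raw featureCounts counts per gene, not normalized, from reads trimmed by fastp and mapped by STAR (mm10), for the 4 WT and 4 HOMO libraries (the submitters' processing notes also name CASAVA and DESeq2). The strand setting of the counting is not given in the sources used here, and the deposited table carries the word "outlierout", whose meaning is not stated. Of 54532 entries, 27324 had at least 1 count. Symbols matched GENCODE M21 (GRCm38) for 53744 entries, which gave positions, merged exon lengths and overlaps. No column of per-sample values was left aside.

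Counts were compared with edgeR 4.0.16 in R 4.3.3 (TMM, filterByExpr by genotype, quasi-likelihood F test, Benjamini-Hochberg adjustment over 14150 genes). The standard error (SE) was taken as the size of the log2 fold change over the root of its F value. For log2 CPM, a prior count of 2 was used. Members outside that test were compared by exact permutation, with unadjusted p only, since the members were chosen with results known. Alternatives were DESeq2 1.42.0, RLE and upper-quartile normalization, no filter, a filter of CPM above 1 in 4 or more libraries, robust estimation of dispersion, limma-voom with sample quality weights (limma 3.58.1), the replicate number as a block, summed near-identical libraries (pairs with a biological coefficient of variation under 10%), an adjusted p under 0.01, no fold change threshold, each library left out, and WT3 and WT4 left out. Scripts were tested on simulated data, and scipy 1.17.1, pandas 2.3.3, numpy 2.4.6 and matplotlib 3.10.9 ran under Python 3.11.15.

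Members, gene lists and marker lists were chosen with earlier results of these data known. The rule named every member that was called or had no overlap, the tested member highest per kb in each class, and the 10 companion genes with the largest changes among those called without overlap. A few genes that meet this rule or belong to these lists are not reported here. Promoters were matched by symbol for 48 of 60 members (RefSeq, GRCm38.p6). The remaining marker lists were read as well. Schwann cell markers summed to 15.7 to 26.9 CPM in WT and 27.2 to 29.5 CPM in HOMO, endothelial markers to 2.31 to 8.09 and 2.63 to 5.78 CPM, epithelial markers to 1.43 to 35.8 and 6.69 to 17.3 CPM, mesothelial markers to 51.8 to 155 and 92.2 to 131 CPM, and pericyte markers to 9.48 to 48.2 and 2.45 to 12.2 CPM.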

Additional observations from a re-analysis of the deposited data

Results flagged for a closer look

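In 4 of the 64 groups of 4 libraries checked over the tested members, 1 library stood apart from the other 3. Its gap took up more of the group's range than Dixon's 95% limit allows. For 4 independent libraries, chance gives about 1 in 20. Both genotypes hold near-identical pairs, so that rate does not measure chance here. WT3 was the library in 3 of the 4 flagged groups. *Itpr3* had 5.24 log2 CPM in WT3 against 6.59 to 6.69 in the other WT libraries, *Itpr1* 5.68 against 6.90 to 7.07, and *Piezo1* 7.62 against 9.31 to 9.53. *Cacnb4* had 2.31 log2 CPM in WT4 against 1.03 to 1.13 in the other WT libraries.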

How the results depend on the processing

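The number of members called, 7 in edgeR over 8 libraries, was 14 in limma-voom with sample weights (limma-voom in the following), 13 without WT3 and WT4, 2 with the replicate block, 1 at an adjusted p under 0.01 and 0 with near-identical libraries summed, and 1 to 10 with 1 library left out. The 16 companion genes called became 27 in DESeq2, 31 in limma-voom, 26 without WT3 and WT4, 3 with the replicate block, 1 at an adjusted p under 0.01, 0 with libraries summed, and 2 to 18 with 1 library left out. Over all genes, 1716 became 2913, 3573, 3117, 947, 398 and 0 in that order, and 507 to 2192. The other settings stayed within 1.5 times each count. Same-numbered WT and HOMO libraries deviated with correlations of −0.12 to 0.01, which show no clear pairing by number. The sample labels do not say whether libraries were paired. Under the block, *Ryr3* and *Cacnb1* were the members called. The log2 fold changes of 8 uncalled members changed sign. *Cacna1d* was 1.78 in limma-voom, 0.43 with the block, 1.96 without WT3 and WT4, and −0.97 to 1.57 with 1 library left out. *Cacnb3*, near 0, was −0.000197 in DESeq2, −0.00211 with RLE, −0.00607 in limma-voom, −0.00394 without WT3 and WT4, and −0.11 to 0.12 with 1 library left out. In limma-voom and without WT3 and WT4, *Cacng7* was 0.0906 and 0.14, *Trpv2* 0.17 and 0.68, and *Atp2a2* 0.15 and 0.11. *Cacnb4* and *Atp2a3* were 0.0114 and 0.0174 without WT3 and WT4, and *Itpr2* 0.0162 with the block. With 1 library left out, *Cacnb4* ranged from −0.54 to 0.0371, *Itpr2* from −0.28 to 0.10 and *Atp2a2* from −0.45 to 0.00822. The causes were not tested. Members outside the test gave 2 with p under 0.05 on both CPM and log2 CPM, and 0 to 2 with 1 library left out, where the groups are unequal in size.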
